A study of Mus musculus with 18 samples.

Results

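The 10 genes described here encode the integrin subunits of macrophages: the alpha subunits Itgam, Itgal, Itgax, Itga4, Itga5 and Itgav and the beta subunits Itgb1, Itgb2, Itgb3 and Itgb5. They were taken by gene symbol from the 54532 genes of the deposited count table, and each symbol matched 1 gene. All 10 were among the 14684 genes that passed the low-count filter in edgeR, the program used for the tests. The rule that took them used gene symbols and no measured value, but it was set with earlier results of these data known.

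Integrins are adhesion receptors made of 1 alpha and 1 beta chain, and a chain reaches the cell surface only in such a pair. The beta chain Itgb2 is restricted to leukocytes and pairs with Itgal (LFA-1, which binds intercellular adhesion molecules), Itgam (Mac-1, which binds complement fragments and fibrinogen) and Itgax (CD11c). Itgb1 pairs with Itga4 (VLA-4, which binds VCAM-1 and fibronectin), Itga5 (the fibronectin receptor) and Itgav. Itgav also pairs with Itgb3 and Itgb5 to form receptors for vitronectin and other RGD proteins, and integrins that hold Itgav can release TGF-β from its latent form.

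Polyadenylated RNA was measured in macrophages that had been grown from tibial bone marrow of mice aged 2 to 3 months. All mice carried Smad1 fl/fl alleles. The floxed-labelled groups carried these alone, and the knockout-labelled groups (MyS1KO) also carried LyzM-Cre, in which the Lyz2 gene of myeloid cells drives Cre. Marrow was first cultured for 24 h with CSF-1 at 12 ng/ml, 15% serum and medium conditioned by WEHI-3 cells. Cells that had not attached were then moved to CSF-1 at 120 ng/ml for 48 h. Serum was withdrawn for about 16 h, and the cells then received nothing, TGF-β1 at 10 ng/ml or BMP4 at 50 ng/ml for 4 h. Each of the 6 groups holds 3 libraries, numbered 1 to 3. Separate animals or cultures are not stated for the libraries of a group. The p-values therefore measure the spread between these libraries, and its source is not known.

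Total counts were 15153296 to 24639163 per library. The 8 macrophage markers checked, among them Adgre1, Csf1r and Mertk, were present in all libraries, with a summed level of 10867 to 12366 CPM (reads of a gene as a share of its library, with TMM scaling). The Smad1 count did not check the genotype labels, since 25.9 to 26.8 CPM remained in untreated knockout-labelled libraries against 30 to 31 CPM in floxed-labelled ones, and the labels do not name the deleted exon. Lyz2, which the Cre insertion is expected to reduce, was 13437 to 17770 CPM in the knockout-labelled libraries. It was 8110 to 9863 CPM in the floxed-labelled libraries numbered 2 and 3, and 37.6 to 74.3 CPM in those numbered 1, which goes against the labels. Every direction between genotypes below rests on these labels. The called subunit changes with TGF-β1, and the label differences of subunits without overlap, are also given without the 3 floxed-labelled libraries numbered 1. Ratio and summed marker values are from all libraries. RNA from whole cultures was measured, so fewer cells of a type and less RNA per cell cannot be told apart.

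In untreated cells, Itgb2 was the most abundant of the 10 RNAs per length. Its level was 348 ± 17.8 FPKM (fragments per length of the gene and total of the library, mean ± SD, n = 3) in floxed-labelled cells, which placed it at the 99.4th percentile of the genes tested. Itgb1 followed with 136 ± 9.95 FPKM, Itgb5 with 68.4 ± 4.53 FPKM and Itgam with 45.9 ± 0.603 FPKM. The next levels were 31.2 FPKM for Itga5, 27.8 for Itga4, 23.2 for Itgal and 18.7 for Itgav. Itga4 and Itgal overlapped between libraries, and so did Itgal and Itgav. Itgb3, at 1.35 FPKM, and Itgax, at 0.839 FPKM, were the lowest and overlapped too. The order was the same in untreated knockout-labelled cells, from 342 FPKM for Itgb2 to 0.472 FPKM for Itgax, with overlaps between Itga5 and Itga4, Itga4 and Itgal, and Itgal and Itgav. This order depends on the gene lengths used. By CPM, mean Itga4 (390) stood above Itgb5 (244) and Itga5 (154) in untreated floxed-labelled cells.

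Itgam shares 68.7% of its 5024 exon bases with the predicted gene Gm49368 on the same strand, and reads there may have been given to neither gene, so the level of Itgam is uncertain. Itga4 shares 8.0% of its exon bases with the antisense gene Cerkl and Itgav 5.9% with the antisense transcript Gm13684. Whether counting used strand is not given in the sources used here, but the mean counts of these partners were 59.4 and 13.8 reads a library, against 3076 or more for Itga4 and 3559 or more for Itgav.

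**Figure D1:**
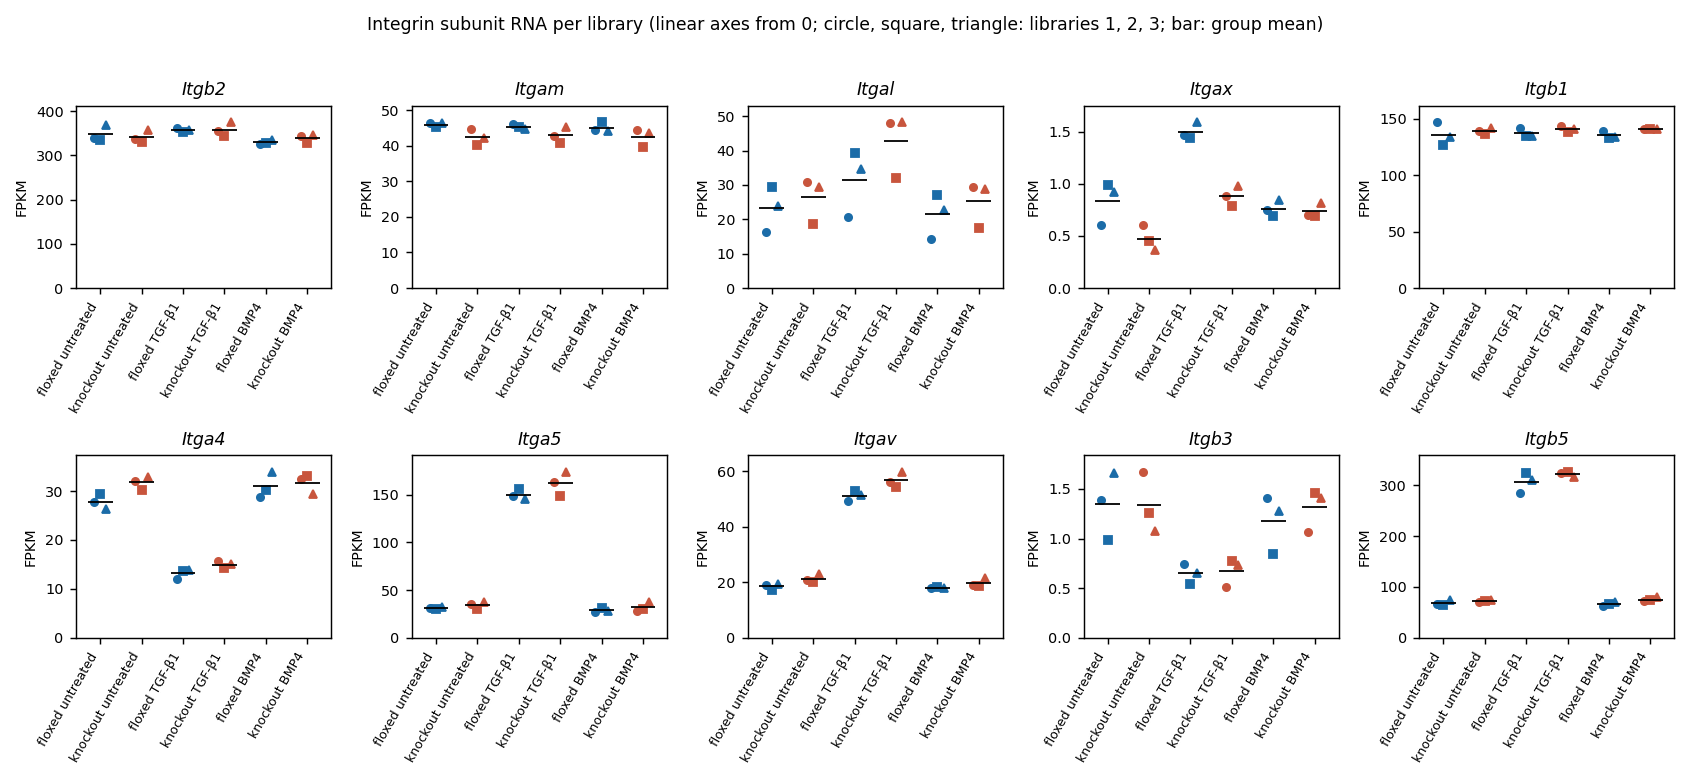
FPKM of each subunit gene (vertical axes, linear from 0) in the 6 groups, with 1 point per library (circle, square and triangle for libraries 1, 2 and 3) and a bar at the group mean. Floxed-labelled libraries are blue and knockout-labelled ones red. Itgb5, Itga5 and Itgav stand higher in all TGF-β1 libraries, Itga4 stands lower, and the Itgb1 and Itgb2 levels lie close together in the 6 groups.

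TGF-β1 against no treatment asks which subunits the ligand changed within 4 h. In floxed-labelled cells, 4 of the 10 genes rose (Itga5, Itgb5, Itgav and Itgax) and 2 fell (Itga4 and Itgb3). The same 6 genes were called in the same directions in knockout-labelled cells. The beta chains Itgb1 and Itgb2 and the alpha chain Itgam were not called under either label. Of all genes tested, 33.0% were called in floxed-labelled and 34.6% in knockout-labelled cells, with 17.0% and 17.6% higher and 16.0% and 17.1% lower, so a call alone is common here. The libraries of 6 and 7 of the 10 genes did not overlap between treated and untreated groups, where those of 43.9% and 44.9% of all genes tested did not. The median log2 change of the 10 genes was 0.25 and 0.38, against 0 over all genes tested. Rises of the size seen in Itga5 and Itgb5 were less common: 1.16% and 1.06% of all genes tested were called with a rise at least as large as that of Itga5, and 1.27% and 1.23% with one at least as large as that of Itgb5.

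Itgb5 (ENSMUSG00000022817, chr16:33829665-33949338, plus strand, mm10) encodes the beta chain that pairs with Itgav in a vitronectin receptor. Its untreated floxed-labelled libraries held 237, 232 and 262 CPM, and those with TGF-β1 held 1020, 1154 and 1115 CPM. The groups did not overlap, and the rise was 4.5-fold (log2 2.17, SE 0.061, edgeR adjusted p = 3.41e-15). Knockout-labelled libraries went from 252, 260 and 268 CPM to 1155, 1169 and 1121 CPM. That rise was 4.41-fold (log2 2.14, SE 0.061, edgeR adjusted p = 4.06e-15), again with no overlap.

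Itga5 (ENSMUSG00000000555, chr15:103344286-103366763, minus strand) encodes the alpha chain of the fibronectin receptor. Floxed-labelled libraries held 154, 150 and 159 CPM untreated and 745, 775 and 727 CPM with TGF-β1. Every treated library was above every untreated one, and the rise was 4.85-fold (log2 2.28, SE 0.097, edgeR adjusted p = 6.61e-13). Knockout-labelled libraries held 176, 150 and 186 CPM untreated and 815, 743 and 857 CPM with TGF-β1, a 4.72-fold rise (log2 2.24, SE 0.097, edgeR adjusted p = 8.32e-13).

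Itgav (ENSMUSG00000027087, chr2:83724397-83806916, plus strand) encodes the alpha chain shared by the vitronectin receptors. Floxed-labelled libraries had 207, 187 and 211 CPM with no ligand and 537, 571 and 558 CPM with TGF-β1. Knockout-labelled ones had 227, 217 and 250 CPM with no ligand and 606, 591 and 642 CPM with TGF-β1. Neither pair of groups overlapped. The rises were 2.76-fold (log2 1.46, SE 0.062, edgeR adjusted p = 7.01e-13) and 2.65-fold (log2 1.41, SE 0.062, edgeR adjusted p = 1.19e-12). A rise at least as large was called for 2.47% and 2.51% of all genes tested.

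Itga4 (ENSMUSG00000027009, chr2:79255426-79333123, plus strand) encodes the alpha chain of VLA-4, which mediates the arrest of leukocytes on vessel walls. It moved the other way. Floxed-labelled libraries held 390, 411 and 369 CPM untreated and 171, 192 and 194 CPM with TGF-β1 (log2 −1.07, SE 0.069, edgeR adjusted p = 2.74e-10). Knockout-labelled libraries held 451, 426 and 465 CPM untreated and 220, 200 and 210 CPM with TGF-β1 (log2 −1.09, SE 0.069, edgeR adjusted p = 2.12e-10). Treated levels were 0.476 and 0.469 of untreated ones with no overlap, and 3.44% and 3.7% of all genes tested were called with a fall at least as large.

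The stretches just before the transcription starts of these 4 genes are shown because these were the abundant subunits that changed under both labels. The 250 bases upstream of each RefSeq start (GRCm38.p6, 5′ to 3′ on the gene's own strand) are at chr16:33829415-33829664 (plus strand) for Itgb5, chr15:103366792-103367041 (minus) for Itga5, chr2:83724147-83724396 (plus) for Itgav and chr2:79255176-79255425 (plus) for Itga4. None of their bases lies in an annotated exon of its own gene. Capitals mark matches to the motifs described after the sequences, on either strand.
Itgb5: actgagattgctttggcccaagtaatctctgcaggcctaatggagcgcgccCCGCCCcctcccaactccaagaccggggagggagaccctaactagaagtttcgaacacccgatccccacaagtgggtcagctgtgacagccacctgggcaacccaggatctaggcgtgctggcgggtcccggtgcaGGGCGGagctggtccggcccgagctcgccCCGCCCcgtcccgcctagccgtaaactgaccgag
Itga5: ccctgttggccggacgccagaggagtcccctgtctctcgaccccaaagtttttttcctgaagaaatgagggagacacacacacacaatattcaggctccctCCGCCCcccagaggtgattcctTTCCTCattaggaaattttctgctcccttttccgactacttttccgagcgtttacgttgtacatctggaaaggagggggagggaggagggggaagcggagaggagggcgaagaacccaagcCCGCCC
Itgav: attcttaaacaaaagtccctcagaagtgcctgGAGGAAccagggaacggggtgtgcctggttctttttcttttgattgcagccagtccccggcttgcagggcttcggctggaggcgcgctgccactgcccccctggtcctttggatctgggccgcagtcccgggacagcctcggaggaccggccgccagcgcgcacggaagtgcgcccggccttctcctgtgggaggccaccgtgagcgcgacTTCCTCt
Itga4: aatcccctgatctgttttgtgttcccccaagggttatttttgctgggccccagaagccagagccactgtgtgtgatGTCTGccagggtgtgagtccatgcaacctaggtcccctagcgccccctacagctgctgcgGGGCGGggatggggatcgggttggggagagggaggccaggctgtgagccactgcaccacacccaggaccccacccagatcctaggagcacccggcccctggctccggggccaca

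The motifs searched were the Smad box CAGAC, the AP-1 site TGANTCA, the GC box GGGCGG and the Ets core GAGGAA, on both strands. Itgb5 held 3 GC boxes and no match to the other motifs. Itga5 held 2 GC boxes and 1 Ets core, and Itgav held 2 Ets cores. Itga4, the gene that fell, held 1 Smad box and 1 GC box. No base lay in matches to more than 1 motif. Among all 32851 RefSeq promoter windows of that length, 42.2% held a Smad box, 6.7% an AP-1 site, 32.7% a GC box and 23.3% an Ets core, so each match is to a common string and is given as a description only. Upstream sequence was matched for 7 of the 10 genes, and that of Itgal, Itgb2 and Itgb3 is not shown.

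The remaining called subunits were scarce. Itgb3 (ENSMUSG00000020689, chr11:104608000-104670476, plus strand) encodes the beta chain of the αvβ3 vitronectin receptor, abundant on osteoclasts. Floxed-labelled libraries had 8.26, 5.85 and 9.83 CPM with no ligand and 4.45, 3.24 and 3.89 CPM with TGF-β1 (log2 −1.05, SE 0.23, edgeR adjusted p = 0.00132). Knockout-labelled libraries held 9.9, 7.5 and 6.4 CPM untreated and 3, 4.62 and 4.31 CPM with TGF-β1 (log2 −0.98, SE 0.24, edgeR adjusted p = 0.00303). Treated libraries were below untreated ones in both labels. Counts behind these values were 45 to 193 reads a library. The summed level of 8 osteoclast markers was also lower with TGF-β1: 63.5 to 78.4 CPM untreated and 52.9 to 57.6 CPM with TGF-β1 in floxed-labelled cells, and 52.9 to 64.7 against 39.6 to 49.6 CPM in knockout-labelled cells. Calcr was at 0 in all 18 libraries, the median of Oscar was 0, and most of the sum came from Atp6v0d2 and Mmp9, of which only Mmp9 in knockout-labelled cells was called. Other markers did not follow: mean Acp5 went from 5.15 to 6.92 and from 5.61 to 7.28 CPM, and Ctsk from 5.59 to 5.46 and from 4.58 to 4.67 CPM. The part of osteoclast-like cells in the Itgb3 values was not tested.

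Itgax (ENSMUSG00000030789, chr7:128129547-128150657, plus strand) encodes CD11c, an alpha chain used as a marker of dendritic cells and of some macrophages. Floxed-labelled libraries held 2.91, 4.76 and 4.46 CPM untreated and 7.12, 6.93 and 7.7 CPM with TGF-β1, a 1.8-fold rise (log2 0.85, SE 0.18, edgeR adjusted p = 0.00083). Knockout-labelled libraries held 2.9, 2.19 and 1.76 CPM untreated and 4.27, 3.81 and 4.69 CPM with TGF-β1, a 1.86-fold rise (log2 0.89, SE 0.2, edgeR adjusted p = 0.00183). Each treated group lay above its untreated group. The counts were only 28 to 184 reads a library. The 8 dendritic cell markers checked were low and moved in both directions. Their summed level was 6.42 to 8.82 CPM untreated and 5.62 to 6.28 CPM with TGF-β1 in floxed-labelled cells, and 6.16 to 6.91 against 5.01 to 6.21 CPM in knockout-labelled cells. Most of the lower sum came from Batf3, at a mean of 4.24 and 0.944 CPM in floxed-labelled and 3.4 and 0.757 CPM in knockout-labelled cells, and it was called under both labels. Others were higher with TGF-β1: Xcr1 had means of 0.501 and 1.37 CPM (called) and 0.675 and 1.25 CPM (not called), and Flt3, not called, of 0.575 and 0.797 CPM and 0.285 and 0.741 CPM. The defining markers Flt3 and Zbtb46 had medians of 0.402 and 0.475 CPM over the 18 libraries. The part of dendritic-like cells in the Itgax values was not tested.

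Among the partners of Itgb2, Itgal varied widely within groups. Itgal (ENSMUSG00000030830, chr7:127296260-127335138, plus strand), the alpha chain of LFA-1, had 108, 193 and 158 CPM with no ligand in floxed-labelled libraries and 137, 259 and 230 CPM with TGF-β1. Knockout-labelled libraries held 204, 124 and 196 CPM untreated and 318, 212 and 316 CPM with TGF-β1. The floxed-labelled groups overlapped and the knockout-labelled groups did not. Neither difference was called (log2 0.45, SE 0.28, edgeR adjusted p = 0.236, and log2 0.69, SE 0.28, edgeR adjusted p = 0.0595).

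The spread of Itgal followed the library numbers. Floxed-labelled library 1 was the lowest of its group in all 3 treatments, with log2 deviations from the group mean of −0.56 to −0.46, and knockout-labelled library 2 was the lowest of its group in all 3, with deviations of −0.48 to −0.39. Within a number, TGF-β1 against no treatment gave 1.27-, 1.34- and 1.46-fold in floxed-labelled and 1.56-, 1.71- and 1.62-fold in knockout-labelled cells, higher in 6 of 6 pairs. Libraries with the same number within a genotype label deviated together over all genes, so a fit with the number as a block was also made. In it Itgal rose under both labels (log2 0.44 and 0.70, edgeR adjusted p = 2.87e-09 and 2.05e-13), where 39.5% and 40.3% of all genes tested were called. That fit raised the count of called subunits to 7 of 10 under each label. Without the 3 floxed-labelled libraries numbered 1 and with no block, the floxed-labelled difference in Itgal was log2 0.48 (edgeR adjusted p = 0.193).

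**Figure D2:**
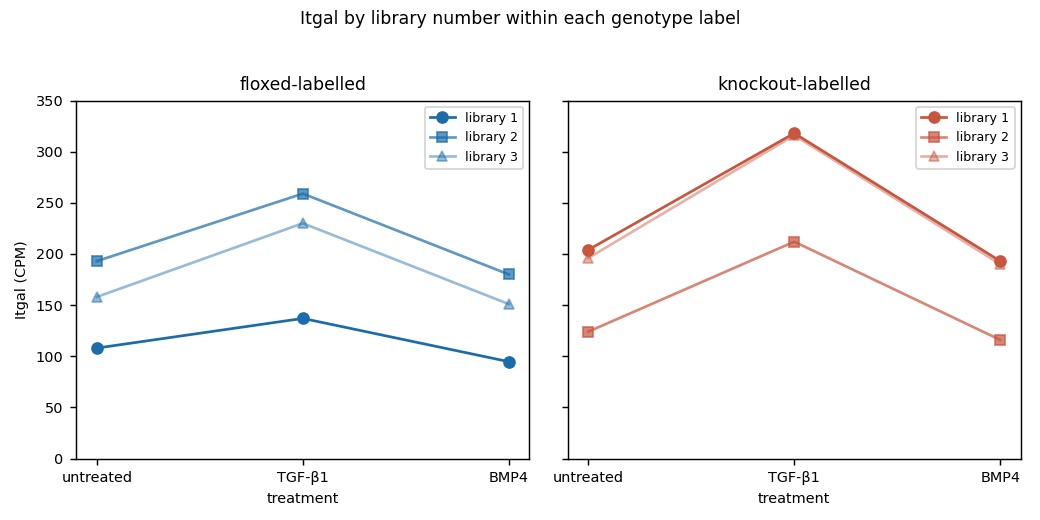
Itgal level in CPM (vertical axis, linear from 0) for each library, joined by library number across the 3 treatments, with floxed-labelled libraries on the left and knockout-labelled ones on the right. Each of the 6 lines peaks at TGF-β1, and the lines of floxed-labelled library 1 and knockout-labelled library 2 lie below the others of their label throughout.

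Itgb2, Itgb1 and Itgam gave no call with TGF-β1. Itgb2 (ENSMUSG00000000290, chr10:77530252-77565708, plus strand) had 1042, 1028 and 1129 CPM with no ligand in floxed-labelled libraries and 1118, 1083 and 1105 CPM with TGF-β1 (log2 0.05, SE 0.047, edgeR adjusted p = 0.497). The change in knockout-labelled cells was log2 0.06 (SE 0.047, edgeR adjusted p = 0.338). Itgb1 (ENSMUSG00000025809, chr8:128685654-128733200, plus strand) changed by log2 0.02 and 0.01, each with an SE of 0.048 (edgeR adjusted p = 0.813 and 0.859). Itgam (ENSMUSG00000030786, chr7:128062640-128118491, plus strand) changed by log2 −0.01 and 0.01, each with an SE of 0.051 (edgeR adjusted p = 0.902 and 0.881). Groups overlapped for these genes under both labels.

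Without the floxed-labelled libraries numbered 1, the floxed-labelled changes with TGF-β1 were log2 2.19 for Itgb5, 2.28 for Itga5, 1.5 for Itgav, −1.02 for Itga4, −1.13 for Itgb3 and 0.66 for Itgax. All 6 were still called, with edgeR adjusted p from 2.29e-12 for Itgb5 to 0.0204 for Itgax.

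**Figure D3:**
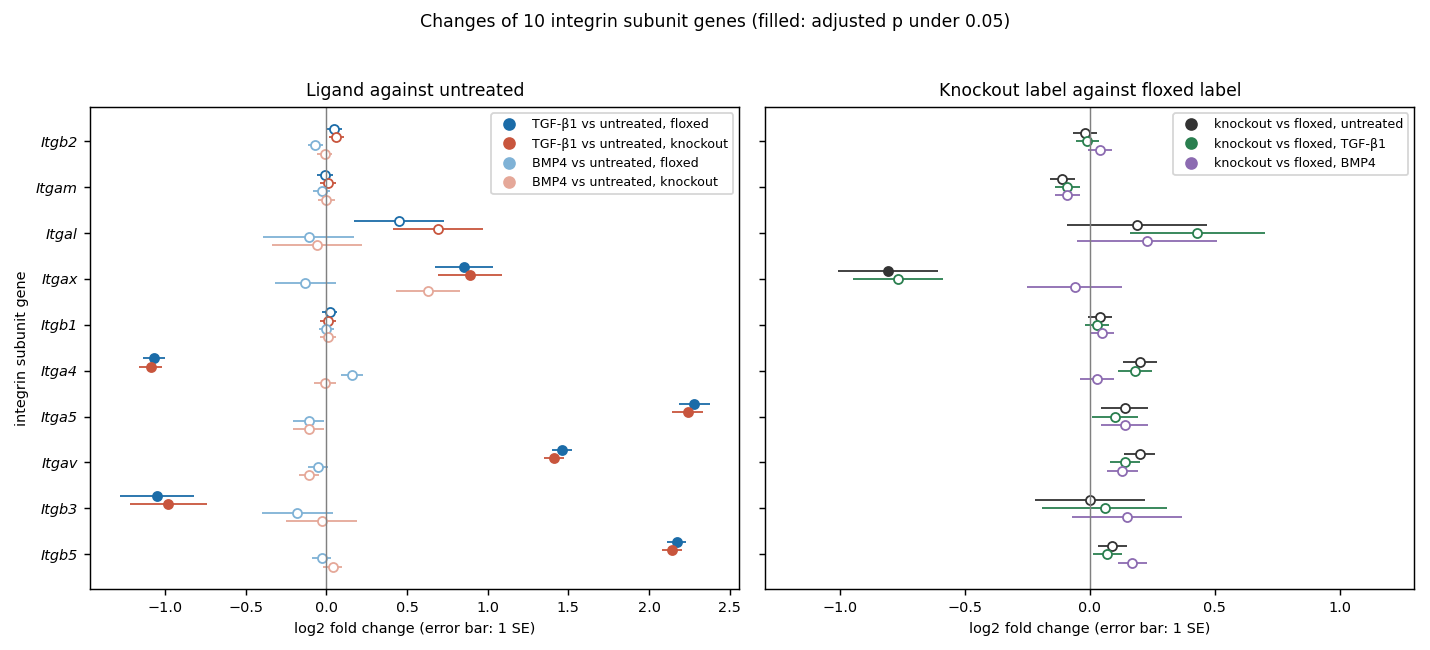
Log2 fold change of each subunit gene with a bar of 1 SE, for the ligands against no treatment (left) and for the knockout label against the floxed label (right). Colours mark the comparisons, and filled points have an edgeR adjusted p under 0.05. The TGF-β1 points of the 2 labels lie side by side for each gene, the BMP4 points are all open, and on the right only Itgax in untreated cells is filled.

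Because a pair needs both chains, the ratio of alpha to beta RNA per length was taken within each library. These ratios are descriptions with no test, and they say nothing of protein. Their size depends on the gene lengths used, which count all annotated exon bases (13978 for Itga4, 4933 for Itga5). Their change between groups does not. The Itga5 to Itgb1 ratio was 0.212, 0.238 and 0.24 in untreated floxed-labelled libraries and 1.05, 1.16 and 1.08 with TGF-β1, so Itga5 RNA went from well below Itgb1 RNA to slightly above it. In knockout-labelled libraries it was 0.256, 0.22 and 0.263 untreated and 1.14, 1.08 and 1.23 with TGF-β1. The Itga4 to Itgb1 ratio went from 0.205 ± 0.0221 to 0.0963 ± 0.0094 (SD, n = 3) in floxed-labelled cells and from 0.228 ± 0.00621 to 0.106 ± 0.00296 in knockout-labelled cells. Set directly against each other per length, Itga5 and Itga4 RNA were near parity untreated (ratio 1.13 ± 0.0952 and 1.08 ± 0.0742). With TGF-β1, Itga5 was 11.5 ± 0.862 and 10.9 ± 0.605 times Itga4. By CPM, untreated Itga5 was below Itga4, at means of 154 against 390 in floxed-labelled and 171 against 447 in knockout-labelled cells.

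The αv pairs differed among themselves. The Itgav to Itgb1 ratio rose from 0.138 ± 0.00762 to 0.374 ± 0.023 in floxed-labelled and from 0.153 ± 0.00813 to 0.403 ± 0.0187 in knockout-labelled cells. The Itgav to Itgb5 ratio went down, from 0.273 ± 0.0128 to 0.168 ± 0.00556 and from 0.294 ± 0.0163 to 0.177 ± 0.0115, with Itgb5 up 4.5- and 4.41-fold and Itgav up 2.76- and 2.65-fold. The Itgav to Itgb3 ratio was 14.4 ± 2.94 and 16.6 ± 4.47 untreated and 80.7 ± 15.4 and 87.6 ± 20.9 with TGF-β1. Of these beta chains, Itgb5 RNA exceeded Itgb3 RNA in all 6 groups.

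The beta chain RNAs were also set against each other. The Itgb5 to Itgb1 ratio was 0.505 ± 0.0481 untreated and 2.24 ± 0.208 with TGF-β1 in floxed-labelled cells, and 0.522 ± 0.0114 and 2.28 ± 0.0744 in knockout-labelled cells. Itgb2 went from 49.6% to 32.7% of the summed FPKM of the 10 genes in floxed-labelled cells while its own level was not called as changed, and Itgb5 went from 9.7% to 27.9%. In knockout-labelled cells the shares were 48.0% and 31.3% for Itgb2 and 10.2% and 28.2% for Itgb5. Among the Itgb2 pairs, the Itgam to Itgb2 ratio stayed between 0.118 and 0.142 in all 18 libraries. The Itgax to Itgb2 ratio was 0.00241 ± 0.000591 untreated and 0.00418 ± 0.000214 with TGF-β1 in floxed-labelled cells, and 0.00139 ± 0.000383 and 0.00246 ± 0.000162 in knockout-labelled cells.

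**Figure D4:**
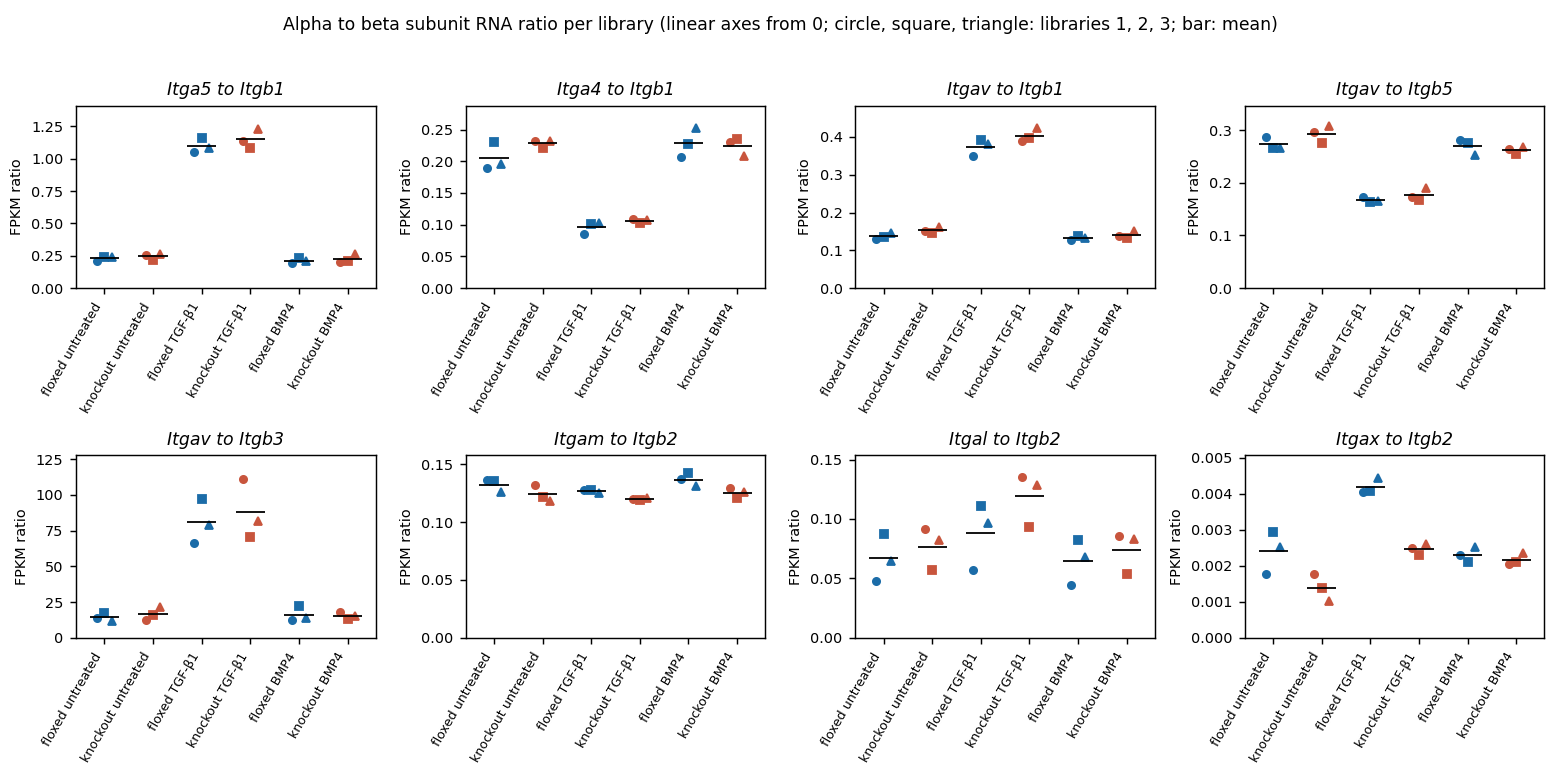
Ratio of alpha to beta subunit FPKM within a library (vertical axes, linear from 0) for 8 pairs in the 6 groups, with 1 point per library and a bar at the mean. Ratios of Itga5 and Itgav to Itgb1 stand higher in the TGF-β1 libraries, those of Itga4 to Itgb1 and Itgav to Itgb5 stand lower, and Itgam to Itgb2 stays between 0.118 and 0.142.

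BMP4 against no treatment asks the same of the ligand whose receptors act through Smad1. No subunit was called by edgeR under either label, where 0.0% and 0.572% of all genes tested were called. DESeq2 and limma on log2(FPKM + 1) called none either, and with library number as a block edgeR also called none, where 0.361% and 3.21% of all genes tested were called. An unadjusted edgeR p under 0.05 was reached by 1 of the 10 under each label, a share near the 7.51% and 12.2% of all genes tested. These genes, not called, were Itga4 in floxed-labelled cells, with 404, 426 and 477 CPM after BMP4 (log2 0.16, SE 0.068, edgeR adjusted p = 0.613), and Itgax in knockout-labelled cells. Itgax held 3.36, 3.35 and 3.94 CPM after BMP4 in knockout-labelled libraries, all above the 3 untreated ones (log2 0.63, SE 0.2, edgeR adjusted p = 0.185). In floxed-labelled libraries it held 3.62, 3.32 and 4.1 CPM, which overlapped the untreated ones (log2 −0.13, SE 0.19, edgeR adjusted p = 0.924). The difference between these responses was log2 0.76 (SE 0.28, edgeR adjusted p = 0.692).

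The subunits that TGF-β1 moved most lay close to their untreated levels after BMP4. Itgb5 held 225, 240 and 252 CPM in floxed-labelled and 258, 263 and 283 CPM in knockout-labelled libraries. Its changes were log2 −0.03 and 0.04, each with an SE of 0.059, and 2 SE either side reached from −0.15 to 0.09 and from −0.07 to 0.16. Itga5 held 132, 155 and 142 CPM and 140, 147 and 187 CPM, and both changes were log2 −0.11 (SE 0.094). Without the floxed-labelled libraries numbered 1, the floxed-labelled changes with BMP4 ran from log2 −0.31 for Itgax to 0.21 for Itga4, and none was called (edgeR adjusted p = 0.581 or more). Both BMP4 and TGF-β1 comparisons of a label share its untreated libraries.

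The knockout label against the floxed label asks whether the subunits differed between the labels. Loss of Smad1 itself was not shown by the counts. In untreated cells, 1 of the 10 genes was called, Itgax, which was lower, where 2.39% of all genes tested were called and 1.1% were lower. Its level was 0.569 of the floxed-labelled level (log2 −0.81, SE 0.2, edgeR adjusted p = 0.0412), and the libraries given above, 2.9, 2.19 and 1.76 CPM against 2.91, 4.76 and 4.46 CPM, did not overlap but came as near as 2.9 and 2.91 CPM. This call rested on few reads and was not stable. Without the floxed-labelled libraries numbered 1 the change was log2 −1.02 (edgeR adjusted p = 0.052), and leaving out any 1 of the 6 untreated libraries except floxed-labelled library 1 also ended the call (log2 −1.03 to −0.66, edgeR adjusted p = 0.0644 to 0.164). With TGF-β1 the difference was log2 −0.77 (SE 0.18, edgeR adjusted p = 0.0705), and with BMP4 it was log2 −0.06 (SE 0.19, edgeR adjusted p = 0.966).

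Summed markers of some cell types, but not of all, were also lower in untreated knockout-labelled libraries. Platelet and megakaryocyte markers summed to 225 to 254 CPM in floxed-labelled and 155 to 210 CPM in knockout-labelled ones. Most of that sum came from Pf4 alone, at a mean of 238 against 181 CPM. The other markers of this list were scarce and did not move together. Ppbp was lower (1.61 against 0.96 CPM) and Treml1 differed little (2.82 against 2.72 CPM). Gp9 (0.173 against 0.244 CPM) and Gp5 (0.0614 against 0.163 CPM) were higher. The scarce fibroblast and stromal markers summed to 3.85 to 4.34 against 2.26 to 2.89 CPM. Of that list, Cxcl12 (0.0314 against 0.145 CPM) and Lepr (0.0177 against 0.103 CPM), near the floor, had higher means in knockout-labelled libraries. Osteoclast sums (63.5 to 78.4 against 52.9 to 64.7 CPM) and neutrophil sums (97.5 to 144 against 79.2 to 113 CPM) overlapped. So did dendritic cell sums (6.42 to 8.82 against 6.16 to 6.91 CPM) and lymphoid sums (9.35 to 12.6 against 9.1 to 11.8 CPM). Macrophage sums (11127 to 12366 against 11242 to 11615 CPM) and those of mast cells and basophils overlapped as well. The summed level of 5 monocyte markers was 559 to 798 CPM in untreated floxed-labelled and 411 to 481 CPM in untreated knockout-labelled libraries, most of it from Ccr2, at a mean of 592 against 402 CPM. The monocyte sums were 528 to 773 against 385 to 497 CPM with TGF-β1 and 530 to 792 against 389 to 509 CPM with BMP4. None of the 5 monocyte markers was at 0 in all libraries. The part of monocyte-like or other cells in the Itgax values was not tested.

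No other subunit was called between the labels in any treatment. Itgav was higher in the knockout-labelled libraries in each treatment with no overlap, by log2 0.20 (SE 0.062, edgeR adjusted p = 0.0962) untreated, 0.14 (SE 0.061, edgeR adjusted p = 0.34) with TGF-β1 and 0.13 (SE 0.062, edgeR adjusted p = 0.614) with BMP4. Itga4 was higher by log2 0.20 (SE 0.068, edgeR adjusted p = 0.125) untreated and 0.18 (SE 0.069, edgeR adjusted p = 0.282) with TGF-β1, without overlap in either, and by 0.03 with BMP4, where the libraries overlapped. In all, 4, 3 and 4 of the 10 genes did not overlap between labels untreated, with TGF-β1 and with BMP4, where 20.5%, 19.2% and 13.2% of all genes tested did not overlap. Among them, Itgam was lower in knockout-labelled libraries untreated (log2 −0.11) and with BMP4 (log2 −0.09). Itgb5 and Itgb1 were higher with BMP4 (log2 0.17 and 0.05). With TGF-β1 and with BMP4 edgeR called none of the 10, where 0.388% and 0.0272% of all genes tested were called. There, unadjusted edgeR p-values under 0.05 were reached by 3 and 2 of the 10 and by 12.5% and 7.91% of all genes tested. DESeq2 called 1 and 0 of the 10 and 193 and 36 of all genes. Untreated, such unadjusted edgeR p-values were reached by 4 of the 10 and by 17.6% of all genes tested. Without the floxed-labelled libraries numbered 1 none of the 10 was called in any treatment: Itgav differed by log2 0.21, 0.12 and 0.12, Itga4 by 0.19, 0.12 and −0.02, and Itgax by −1.02, −0.78 and −0.07, in the order untreated, TGF-β1, BMP4. In the same fit Itgam differed by log2 −0.11 untreated and −0.1 with BMP4, and Itgb5 and Itgb1 by 0.13 and 0.07 with BMP4.

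The TGF-β1 response itself was compared between the labels with an interaction term. None of the 10 genes was called, none had an unadjusted p under 0.05, DESeq2 called none, and 0.00681% of all genes tested were called. The difference in response, knockout-labelled minus floxed-labelled, was log2 −0.03 for Itgb5 (SE 0.083, edgeR adjusted p = 1.0), with 2 SE either side from −0.19 to 0.14. It was −0.04 for Itga5 (from −0.3 to 0.22), −0.06 for Itgav (from −0.23 to 0.12) and −0.02 for Itga4 (from −0.22 to 0.17). The intervals were wider for Itgax (0.05, from −0.49 to 0.58), Itgb3 (0.07, from −0.6 to 0.73) and, widest, the abundant Itgal (0.24, from −0.53 to 1.02). With library number as a block within genotype the standard errors were smaller, and the difference was −0.04 (SE 0.078) for Itga5 and 0.27 (SE 0.062, edgeR adjusted p = 0.414) for Itgal, and none of the 10 was called. Without the floxed-labelled libraries numbered 1 and with no block, the differences were −0.05 for Itgb5, −0.04 for Itga5, −0.09 for Itgav and −0.07 for Itga4, and none was called.

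The other integrin genes were read from the same fit. Of 17 further subunit genes 10 were tested. With TGF-β1, 1 rose and 2 fell in floxed-labelled and 1 rose and 4 fell in knockout-labelled cells, where 33.0% and 34.6% of all genes tested were called. The median log2 change of these 10 was −0.29 and −0.41, against 0 over all genes tested. Itga6, the alpha chain of laminin receptors and the most abundant of them, rose in floxed-labelled cells from 514 ± 31 CPM to 844 ± 30.3 CPM (a log2 change of 0.71, SE 0.059, edgeR adjusted p = 9.9e-09) and in knockout-labelled cells from 552 ± 34.4 CPM to 873 ± 34.5 CPM (a log2 change of 0.66, SE 0.059, edgeR adjusted p = 3.09e-08). Itga8, which pairs with Itgb1, fell from 12.8 ± 1.75 to 5.74 ± 1.05 CPM and from 12.4 ± 3.65 to 4.93 ± 0.84 CPM. Itga9, also a partner of Itgb1, fell from 37.3 ± 7.83 to 22.8 ± 1.72 CPM and from 35.7 ± 2.34 to 23.8 ± 4.19 CPM. In knockout-labelled cells the 2 further falls were Itgae, from 1.68 ± 0.418 to 0.836 ± 0.411 CPM, which was not called without the floxed-labelled libraries numbered 1, and Itgb8, which was under 1 CPM untreated and is named only to complete the count. With library number as a block, 1 rose and 3 fell, and 1 rose and 5 fell, where 39.5% and 40.3% of all genes tested were called. The added fall under both labels was Itgb7 (log2 −0.23 and −0.21 with no block, blocked edgeR adjusted p = 0.0155 and 0.0399). With BMP4, and between labels in each treatment, edgeR and DESeq2 called none of the 10. None had an unadjusted edgeR p under 0.05 there, where 7.51% to 17.6% of all genes tested did.

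RNAs for integrin activators and adaptors moved in both directions with TGF-β1. Of 37 genes listed 31 were tested, and 8 rose and 12 fell in floxed-labelled and 8 rose and 13 fell in knockout-labelled cells (median log2 −0.10 and −0.12). The share called over all genes tested was 33.0% and 34.6%. Cyth1, which binds the Itgb2 tail, rose from 60 ± 5.53 to 168 ± 1.77 CPM in floxed-labelled cells (log2 1.49, SE 0.066, edgeR adjusted p = 1.37e-12) and by log2 1.5 in knockout-labelled cells. Actn1, an actin cross-linker at adhesion sites, rose from 106 ± 13.2 to 263 ± 8.96 CPM, and Parvb, which binds integrin-linked kinase, from 47.9 ± 2.14 to 103 ± 4.93 CPM. The adaptor Tns3 rose from 620 ± 22.5 to 1092 ± 39.4 CPM.

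Among the falls was Apbb1ip, which encodes RIAM, the adaptor between Rap1 and talin. It went from 286 ± 14.8 to 147 ± 8.15 CPM in floxed-labelled (log2 −0.96, SE 0.058, edgeR adjusted p = 9.8e-11) and from 301 ± 11.7 to 163 ± 9.34 CPM in knockout-labelled cells (log2 −0.88). Rap1a, the GTPase upstream of it, fell from 145 ± 5.17 to 98.1 ± 1.83 CPM, and Dab2, an endocytic adaptor, from 783 ± 50.8 to 359 ± 6.83 CPM. Tns1, which links integrins to actin, fell from 91.7 ± 9.23 to 39.8 ± 1.71 CPM in floxed-labelled and from 89.1 ± 4.11 to 27.7 ± 1.76 CPM in knockout-labelled cells. With BMP4 Tns1 fell in knockout-labelled cells, to 59.2 ± 4.1 CPM (log2 −0.59, SE 0.078, edgeR adjusted p = 0.00232), the only call of this list there with no block. Of all genes tested 0.572% were called there. An unadjusted edgeR p under 0.05 was reached there by 7 of the 31, against 12.2% of all genes tested. With library number as a block, Dab2 and Tns3 fell there too (log2 −0.27 and −0.18 with no block, blocked edgeR adjusted p = 0.0013 and 0.00919). Between labels, Tns1 was lower in knockout-labelled cells with TGF-β1 (log2 −0.52, SE 0.084, edgeR adjusted p = 0.0186), and Ptk2b and Parvb were each higher by log2 0.23 in untreated ones (edgeR adjusted p = 0.0245 and 0.031). Of all genes tested, 0.388% were called between labels with TGF-β1 and 2.39% untreated. None of these 3 label calls held without the floxed-labelled libraries numbered 1 (Tns1 log2 −0.54, Ptk2b 0.23 and Parvb 0.26, edgeR adjusted p = 0.06, 0.108 and 0.0705). With BMP4 in floxed-labelled cells, 5 of the 31 had an unadjusted edgeR p under 0.05, against 7.51% of all genes tested, and DESeq2 called 1. There edgeR with no block called none of the 31. With the block it called Tns1 and Dab2, both lower (log2 −0.36 and −0.23 with no block, blocked edgeR adjusted p = 0.00573 and 0.0269).

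Of 33 genes for integrin ligands 16 were tested. With TGF-β1, 4 rose and 4 fell in floxed-labelled and 2 rose and 4 fell in knockout-labelled cells (median log2 0.05 and −0.14). The share called over all genes tested was 33.0% and 34.6%. F11r, the junction protein JAM-A that binds LFA-1, rose from 5.81 ± 0.278 to 63.4 ± 7.49 CPM in floxed-labelled (log2 3.45, SE 0.14, edgeR adjusted p = 3.68e-13) and from 5.82 ± 0.995 to 59.1 ± 8.92 CPM in knockout-labelled cells. Tgfbi, a matrix protein bound by αv integrins, rose by log2 2.79 and 2.74. Fn1, fibronectin, the ligand of the Itga5 pair, rose in floxed-labelled cells from a low level of 3.85 ± 0.724 to 7.94 ± 3.01 CPM (a log2 change of 1.05, SE 0.25, edgeR adjusted p = 0.00249). In knockout-labelled cells Fn1 had 3.01 ± 0.682 and 4.09 ± 1.04 CPM (log2 0.43, edgeR adjusted p = 0.256). The difference between these responses was not called. The summed level of 8 fibroblast and stromal markers also spread in the floxed-labelled libraries with TGF-β1, from 1.5 to 12.9 CPM, against 3.85 to 4.34 CPM untreated, and its part in the Fn1 values was not tested. The fourth rise there, Tgfb3, stayed under 1 CPM, was not called without the floxed-labelled libraries numbered 1 and is named only to complete the count. Icam1 and Icam2, ligands of LFA-1, fell, with log2 changes of −0.34 and −0.51 in floxed-labelled and −0.36 and −0.60 in knockout-labelled cells. Tgfb1, whose latent product αv integrins bind, fell from 248 ± 5.32 to 210 ± 8.95 CPM and from 277 ± 3.6 to 214 ± 4.41 CPM. Between labels 1 ligand gene was called, Col4a1, a basement membrane collagen, which was higher in untreated knockout-labelled cells (9.34 ± 1.71 against 5.11 ± 1.74 CPM, log2 0.86, SE 0.2, edgeR adjusted p = 0.032), also without the floxed-labelled libraries numbered 1 (log2 1.18, edgeR adjusted p = 0.0277). In that untreated comparison 2.39% of all genes tested were called. BMP4 gave no call among the ligands by edgeR or DESeq2. An unadjusted edgeR p under 0.05 was reached by 0 and 1 of 16 in floxed- and knockout-labelled cells, against 7.51% and 12.2% of all genes tested.

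Of 16 genes for membrane proteins known to associate with integrins 14 were tested. With TGF-β1, 6 rose and 4 fell in floxed-labelled and 6 rose and 3 fell in knockout-labelled cells (median log2 0.11 and 0.12). The share called over all genes tested was 33.0% and 34.6%. Cav1, caveolin-1, rose in floxed-labelled cells from 18.2 ± 3.85 CPM to 73.1 ± 9.17 CPM (a log2 change of 2.00, SE 0.14, edgeR adjusted p = 1.35e-09) and the tetraspanin Cd9 from 119 ± 22 to 320 ± 18 CPM (log2 1.43). Plaur, the urokinase receptor, rose from 10.3 ± 1.46 to 26.5 ± 3.48 CPM. Cd47 and its receptor Sirpa fell, with log2 changes of −0.55 and −0.48, and so did the scavenger receptor Cd36 (−0.46). In knockout-labelled cells Cav1, Cd9 and Plaur rose by log2 2.03, 1.45 and 1.16, and Cd47, Sirpa and Cd36 fell, with changes of −0.58, −0.50 and −0.40. BMP4 gave no call among these genes by edgeR or DESeq2. An unadjusted edgeR p under 0.05 was reached by 0 and 2 of 14, against 7.51% and 12.2% of all genes tested.

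For each subunit called with TGF-β1 under both labels, the genes with the most alike pattern were found as the smallest root mean square difference in log2 CPM, centred per gene, over the 18 libraries and among 8404 genes. The nearest to Itgb5 were Epb41l2 (0.0701), Inf2 (0.0783) and Uhrf1bp1 (0.0859). The nearest to Itga5 were Slc25a37 (0.0985), Extl3 (0.109) and Itgb5 itself (0.136), the only pair of the 10 subunits named in this way. Itgav lay nearest to Fmnl3 (0.0716), Mgat4a (0.0777) and Ski (0.0779), and Itga4 to Lacc1 (0.0965), Rnf150 (0.0977) and Bmt2 (0.102). The nearest genes to the scarce subunits were farther off, at 0.244 for Itgb3 (Tuba1a) and 0.284 for Itgax (Zmynd15).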

How the data were processed

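RNA was measured in 18 libraries, 6 groups of 3. Per the submitters' processing notes, TopHat2 2.0.9, HTSeq 0.6.1 and Cufflinks 2.1.1 were used with mm10 (GRCm38.p6). Per the file headers, the deposited values for each gene are read counts, which entered the tests as they stand. The authors' deposited FPKM equalled the count over gene length times a constant per library, to within 1e-06 in 100% of the values checked. The deposited table also holds 78 other per-sample columns, which were not used. Counting mode and strand are not given in the sources used here.

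Tests used edgeR 4.0.16 under R 4.3.3, with TMM scaling, filterByExpr (14684 genes), 1 mean per group over all 18 libraries, and a two-sided quasi-likelihood F test. "edgeR adjusted p" is its Benjamini-Hochberg value over all genes tested, called under 0.05. The procedure was run on simulated counts drawn with no link between same-numbered libraries, so that run does not cover such a link. Floors of 3 counts were 0.122 to 0.198 CPM, for counting error only. No 2 libraries of a group agreed within sampling noise (chi-square over its degrees of freedom 3.694 to 28.646). Same-numbered libraries within a genotype label deviated together (correlations 0.335 to 0.731 over 18 pairs), which sets the replicate block. The alternatives were RLE or total count scaling, other filters, DESeq2 1.42.0, limma 3.58.1 on log2(FPKM + 1) or log2(FPKM + 0.1) of the deposited values, only the groups compared, the blocks, and libraries left out.

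Named genes were all 10 subunits and, from 4 lists (other subunits, activators and adaptors, ligands, membrane partners), up to 4 called genes per direction by lowest adjusted p with at least 1 CPM, not all of which are reported. The subunits, lists and rule were chosen with earlier results of these data known. Sequences are from RefSeq promoter windows (GRCm38.p6).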

Additional observations from a re-analysis of the deposited data

How the results depend on the processing

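The 6 subunits called with TGF-β1 were called under all 19 settings in both labels, among them log2 2.12 to 2.21 and 2.12 to 2.17 for Itgb5, and no subunit changed direction where called. The replicate block within genotype raised the subunits called with TGF-β1 from 6 to 7 under both labels through Itgal (edgeR adjusted p = 2.87e-09 and 2.05e-13) and changed no other subunit's call. Genotype comparisons cannot be fitted with that block, and a block over all groups left their calls unchanged. Itgal was called in 2 of 19 settings in floxed-labelled and 5 of 19 in knockout-labelled cells, the latter also without knockout-labelled TGF-β1 library 2 (log2 0.88, edgeR adjusted p = 0.0293). Between labels, the count of called subunits in untreated cells (1, Itgax) was 0 with only the groups compared, 0 without the 3 floxed-labelled libraries numbered 1, 0 without the 3 knockout-labelled libraries numbered 2 (chosen after seeing the data), and 0 to 1 with single libraries left out. Itgax was called there in 10 of 18 settings (edgeR, DESeq2 or limma adjusted p = 0.00811 to 0.19). With TGF-β1 the count was 2 with no low-count filter, 1 by DESeq2 (Itgax, DESeq2 adjusted p = 0.0144) and 1 by limma on log2(FPKM + 1), against 0, and with BMP4 it was 1 (Itgal) with no filter, against 0. The causes were not tested. All 572 recomputed subunit ratios moved by less than the pooled SD of the 2 groups. Where a library was left out of only 1 group, the shift could not exceed that SD, so this says little about stability. Over all genes tested, counts of calls with BMP4 were 0 in floxed-labelled cells against 69 with no filter, 14 by DESeq2 and 53 with the block within genotype. In knockout-labelled cells they were 84 against 240, 181 and 472, and 2 with only the groups compared. Between labels they were 351 untreated against 817 with no filter, 29 with only the groups compared and 39 without the floxed-labelled libraries numbered 1. With TGF-β1 they were 57 against 394, 19 and 2, and 193 by DESeq2, and with BMP4 4 against 287 with no filter, 36 by DESeq2 and 0 with only the groups compared. Low counts limit Itgax and Itgb3, and the spread between library numbers limits Itgal.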
